A study of Homo sapiens with 4 samples.

Results

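The expression of 9 receptor genes of neural growth factors was compared between control BE(2)C cells and BE(2)C cells with MYCN knockdown. The genes were ALK and LTK, RET with its co-receptors GFRA2 and GFRA3, the neurotrophin receptors NTRK2, NTRK3 and NGFR, and the neuregulin receptor ERBB3. They were taken by gene symbol, and all 9 were found among the 26360 genes used. BE(2)C is an established human neuroblastoma line with amplified MYCN. RNA-seq was performed on 4 samples, 2 of cells given a non-targeting siRNA (Ctrl, genotype wild type in the labels) and 2 of cells given siRNA against MYCN (MYCN KD). Both groups were transfected with a lipid reagent for 6 h, at 80 nM siRNA according to the labels (the methods of the study give another concentration), and RNA was taken a day later. The labels do not say whether samples of a group came from separate cultures, so p-values measure the spread between these samples only. The knockdown used 1 cell line and is partial, and each sample is a bulk culture, in which a change in RNA per cell and a change in the share of cells that carry it cannot be told apart.

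All but GFRA2, GFRA3 and NGFR of these genes encode receptor tyrosine kinases or their close relatives, which sit in the cell membrane, bind a growth factor outside the cell and start phosphorylation of RAS, ERK and AKT pathway proteins inside it. ALK is known for activating mutations in neuroblastoma, and LTK is its closest relative and shares its ALKAL ligands. RET is the signalling chain for the GDNF family of ligands, which first bind a membrane-anchored GFRA co-receptor. NTRK2 and NTRK3 are the receptors of BDNF and NT-3, and NGFR (p75) binds all neurotrophins without a kinase of its own. ERBB3 binds neuregulins and signals mainly through a partner of its family. In the sympathetic lineage, from which neuroblastoma arises, these receptors guide survival, outgrowth and maturation of neurons.

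Values are RPKM, that is reads scaled to the length of the gene and to the depth of the sample, which the authors derived from normalized read counts. Levels can thus be compared between genes. The total behind each sample lay from 29055819 to 34142988 reads. MYCN itself stood at 1068 and 1073 RPKM in the Ctrl samples and at 720.2 and 718.0 RPKM in the MYCN KD samples (log2 fold change -0.57, SE 0.029, limma adjusted p = 0.00361). The markers of noradrenergic neuroblasts, TH and DBH among them, were present, with 10 of 10 at a mean RPKM of at least 1. Their summed RPKM lay from 3256 to 3569 in Ctrl and from 4504 to 4935 in MYCN KD. Of the mesenchymal markers, 3 of 7 reached this level and PRRX1 was listed at 0, with sums from 201.0 to 210.2 in Ctrl and from 268.9 to 279.7 in MYCN KD. VIM made up most of these sums, at 154.0 and 159.4 RPKM in Ctrl against 235.0 and 227.2 RPKM in MYCN KD. COL1A1 was also higher in MYCN KD, at 0.726 and 0.739 RPKM against 1.78 and 1.74 RPKM. TWIST1 was lower, at 45.8 and 49.5 RPKM against 42.1 and 39.1 RPKM. The part of these shifts in the receptor gene values was not tested. Blood markers (1 of 4 at this level) had sums of 1.77 and 1.54 in Ctrl against 1.57 and 1.77 in MYCN KD, epithelial markers (0 of 4) of 1.07 and 1.02 against 2.04 and 1.97, and endothelial markers (0 of 3) of 0.286 and 0.367 against 0.638 and 0.504.

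Of the 9 receptor genes, 5 rose with MYCN knockdown in the limma test below, and the rises were of unequal size. The call of ALK depended on the processing. LTK rose most, to 5.90 times its control level, followed by NTRK3 (1.94 times), RET (1.80 times), GFRA2 (1.47 times) and ALK (1.21 times). GFRA3 had a lower mean in MYCN KD, at 0.794 times Ctrl, and did not pass the test. NGFR (3.42 times) and ERBB3 (1.36 times) were too low for the test, and NTRK2 was listed at 0 in all 4 samples. Testing by limma used log2(RPKM + 1) and the 11409 genes that averaged 1 RPKM or more over the 4 samples, among them 6 of the receptor genes. At an adjusted p under 0.05, 5 of these 6 were higher and 0 were lower. The shares over everything tested were 25.3% higher, 22.8% lower and 48.1% in all. No receptor gene was lower at an unadjusted p under 0.05 (0 genes), nor with limma voom on the recovered reads (0 genes). With quantile normalization, however, 4 were higher and 1 was lower (GFRA3). The median log2 fold change was 0.55 for the 6 receptor genes and 0.03 for all tested genes. Of the 8 receptor genes above 0, 7 had both MYCN KD values above both Ctrl values, as did 39.3% of the 19904 genes above 0 and 40.4% of the tested genes. Only GFRA3 had both values below, as did 26.3% and 35.8% of those genes.

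**Figure D1:**
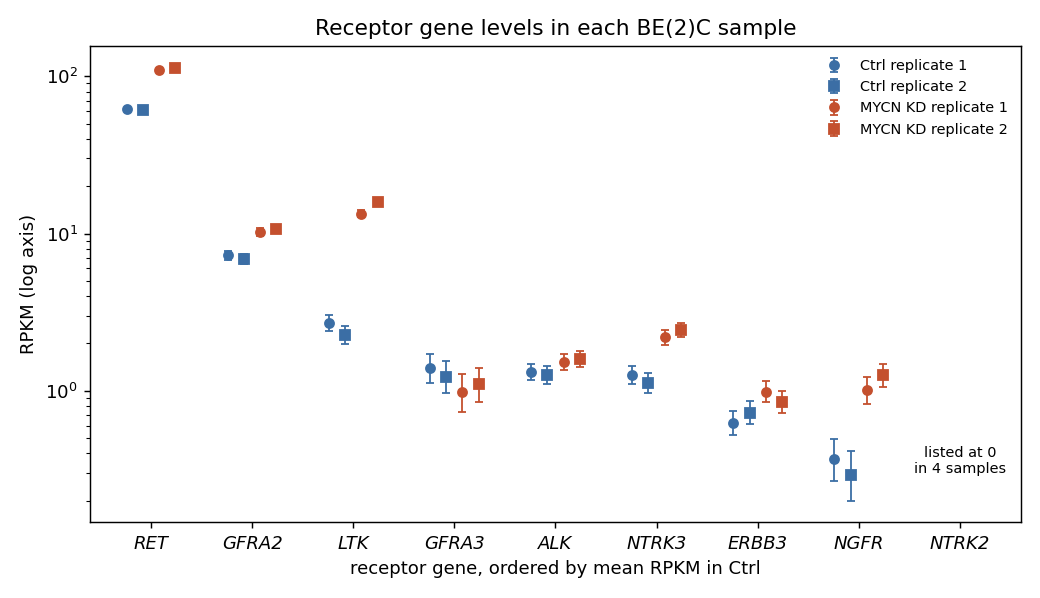
RPKM on a log axis of each receptor gene in each sample, with circles for replicate 1 and squares for replicate 2, in blue for Ctrl and red for MYCN KD. Bars are Poisson 95% intervals computed from the reads after normalization behind each value. In every gene above 0 except GFRA3 both MYCN KD points lie above both Ctrl points. NTRK2 is listed at 0 and has no point.

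The stretches before the start sites of 4 of the genes that rose are shown because these genes moved in the same direction, and because MYCN binds the E-box CACGTG. Each is the 250 bases before the RefSeq start of the gene, read 5′ to 3′ along the gene and placed on GRCh37 by an exact match. The gene spans given below cover all annotated transcripts, so the stretches of LTK, RET and NTRK3 lie partly inside those spans. Capitals mark GGGCGG on either strand, the GC box of Sp1-type factors, which was added to the search after the values were known.
LTK, chr15:41806026-41806275, minus strand: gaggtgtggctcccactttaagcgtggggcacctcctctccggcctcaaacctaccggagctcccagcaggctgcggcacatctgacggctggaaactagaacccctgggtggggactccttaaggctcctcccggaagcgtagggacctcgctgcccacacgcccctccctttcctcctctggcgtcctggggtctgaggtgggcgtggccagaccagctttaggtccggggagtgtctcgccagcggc
RET, chr10:43572267-43572516, plus strand: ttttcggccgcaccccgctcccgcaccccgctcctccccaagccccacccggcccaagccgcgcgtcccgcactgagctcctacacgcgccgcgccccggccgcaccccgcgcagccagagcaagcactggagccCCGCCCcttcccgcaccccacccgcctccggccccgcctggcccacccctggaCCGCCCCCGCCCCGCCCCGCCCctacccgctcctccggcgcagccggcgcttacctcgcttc
ALK, chr2:30144453-30144702, minus strand: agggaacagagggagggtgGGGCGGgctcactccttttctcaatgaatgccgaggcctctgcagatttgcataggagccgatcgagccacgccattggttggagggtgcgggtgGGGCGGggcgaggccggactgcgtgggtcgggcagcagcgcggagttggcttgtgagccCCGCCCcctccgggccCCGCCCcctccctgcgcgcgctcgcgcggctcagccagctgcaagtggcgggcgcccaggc
NTRK3, chr15:88799971-88800220, minus strand: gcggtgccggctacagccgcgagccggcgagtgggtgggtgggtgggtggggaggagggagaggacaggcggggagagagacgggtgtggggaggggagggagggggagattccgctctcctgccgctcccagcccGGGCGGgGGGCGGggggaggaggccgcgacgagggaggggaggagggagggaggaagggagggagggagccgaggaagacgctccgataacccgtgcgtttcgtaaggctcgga
CACGTG, which is its own reverse complement, was found in 0 of the 6 receptor genes with an entry (ALK, LTK, RET, GFRA3, NTRK2 and NTRK3), and in 6.32% of all 34943 promoter stretches of this length. GGGCGG or its reverse complement CCGCCC was found in 5 of the 6, and in 42.5% of all stretches. RET held 5 matches, and 4.12% of all stretches held at least 5. ALK held 4 matches (at least 4 in 7.60% of stretches), NTRK3 held 2 (at least 2 in 24.29%), and GFRA3 and NTRK2 held 1 each. LTK, the gene with the largest rise among the 9, held 0. The GC content was 79.6% for RET, 71.6% for ALK, 73.2% for NTRK3 and 66.0% for LTK, against a median of 58.0% over all stretches, and its part in the counts of GGGCGG was not tested. GFRA2, NGFR and ERBB3 had no entry.

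In GRCh37, ALK spans bases 29415640 to 30144452 of chromosome 2 (minus strand), 13.3 Mb from MYCN, and its canonical transcript has 29 exons. It measured 1.31 and 1.26 RPKM in the Ctrl samples, against 1.53 and 1.59 RPKM in the MYCN KD samples. Both MYCN KD samples were higher, but the distance between the groups was small. The values rest on 281 and 253 reads for Ctrl, against 279 and 309 reads for MYCN KD, and the 95% counting intervals in RPKM overlapped, from 1.11 to 1.48 over the Ctrl samples and from 1.36 to 1.78 over the MYCN KD samples. These intervals, here and below, treat reads after normalization as raw counts, so they only approximate the counting error and cover no other error. The log2 fold change was 0.16 (SE 0.039, limma adjusted p = 0.0412), and 35.8% of the tested genes had a larger rise. The call was lost when low genes were not filtered out (adjusted p = 0.0632), with quantile normalization (log2 fold change 0.033, adjusted p = 0.620) and without any 1 of the 4 samples (adjusted p from 0.280 to 0.396). It held, at larger values, with a pseudocount of 0.1 (0.26, adjusted p = 0.0416) and with limma voom on the recovered reads (0.28, adjusted p = 0.0261). ALK shares 135 exon bases with CLIP4 on the opposite strand, and whether reads were counted by strand is not given in the sources used here.

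LTK is a short gene on chromosome 15, from 41795835 to 41806085 on the minus strand, with 20 exons. It measured 2.71 and 2.26 RPKM in the Ctrl samples, against 13.4 and 15.9 RPKM in the MYCN KD samples. The groups were far apart, with 289 and 226 reads against 1217 and 1539 reads. The log2 fold change was 2.17 (SE 0.119, limma adjusted p = 0.00380), the third largest rise among the 11409 tested genes in this fit. It stayed past the threshold under every alternative listed in the closing section, with log2 fold changes from 2.05 to 2.56. The ratio of LTK to ALK within a sample was 2.06 and 1.79 in the Ctrl samples, against 8.74 and 9.98 in the MYCN KD samples. The ratio was higher in both MYCN KD samples, although with 2 samples against 2 an exact two-sided permutation test of this ratio cannot give a p below 0.3333.

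**Figure D2:**
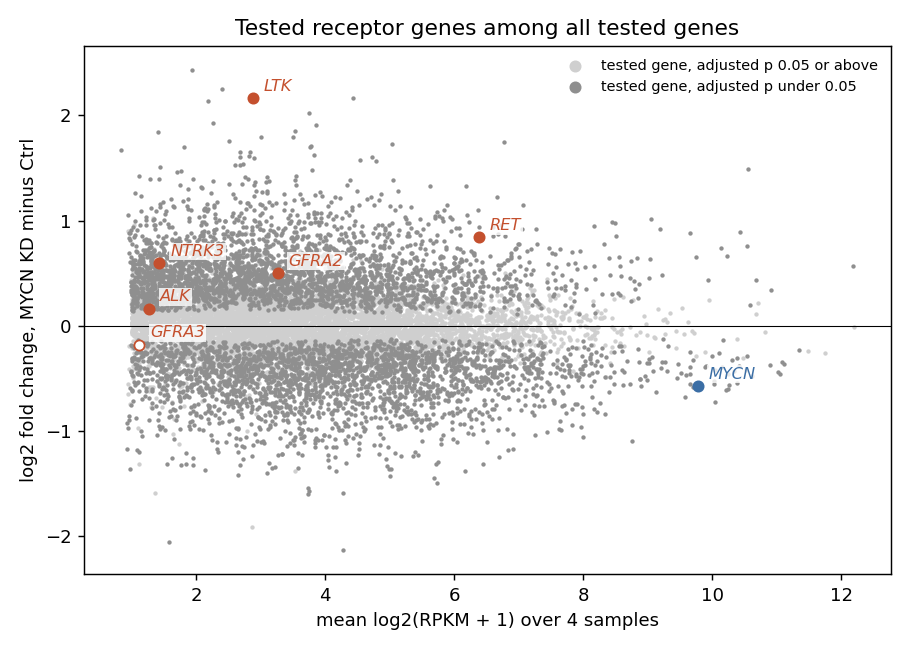
Log2 fold change (MYCN KD minus Ctrl) against mean log2(RPKM + 1) over the 4 samples for all tested genes, dark grey at an adjusted p under 0.05 and light grey above it. The 6 tested receptor genes are red and MYCN is blue, filled where the adjusted p is under 0.05. LTK lies at 2.17, near the top of all genes, and GFRA3 is the one receptor gene below 0.

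RET, on chromosome 10 from 43572512 to 43625799 on the plus strand, was the most abundant of the 9 receptor genes in both groups. It measured 62.2 and 60.8 RPKM in the Ctrl samples, against 109.7 and 112.1 RPKM in the MYCN KD samples. The samples of a group lay close together and the groups were well separated. Its log2 fold change was 0.84 (SE 0.035, limma adjusted p = 0.00359), and 3.34% of the tested genes had a larger rise. RET made up 81.1% of the summed mean RPKM of the 9 genes in Ctrl and 77.6% in MYCN KD.

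Of the RET co-receptors, GFRA2, which prefers neurturin, was the more abundant and rose. It lies on chromosome 8 from 21547910 to 21669869 on the minus strand and measured 7.26 and 6.93 RPKM in the Ctrl samples, against 10.2 and 10.7 RPKM in the MYCN KD samples. The groups did not overlap, and the log2 fold change was 0.50 (SE 0.049, limma adjusted p = 0.00733). RET was 8.57 and 8.78 times as abundant as GFRA2 in Ctrl, and 10.7 and 10.5 times as abundant in MYCN KD. GFRA3, the co-receptor of artemin, lies on chromosome 5 from 137588069 to 137610310 on the minus strand. It measured 1.40 and 1.23 RPKM in the Ctrl samples, against 0.980 and 1.10 RPKM in the MYCN KD samples, so that both MYCN KD samples were the lower ones. Only 92 and 76 reads (Ctrl) and 55 and 66 reads (MYCN KD) lie behind them, and their counting intervals overlapped. The log2 fold change was -0.18 (SE 0.062), which missed the threshold at a limma adjusted p of 0.0892. With quantile normalization it passed, at -0.31 (adjusted p = 0.0348).

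NTRK3, on chromosome 15 from 88402982 to 88800022 on the minus strand, measured 1.26 and 1.13 RPKM in the Ctrl samples, against 2.19 and 2.43 RPKM in the MYCN KD samples. Both MYCN KD samples lay well above the Ctrl samples, from 225 and 189 reads to 334 and 394 reads. The log2 fold change was 0.59 (SE 0.062, limma adjusted p = 0.00796). On the log2(RPKM + 1) scale the change of such a low gene is understated, and with limma voom on the recovered reads it was 0.95 (adjusted p = 0.00726). NTRK2, the BDNF receptor on chromosome 9 from 87283290 to 87710666, was listed at 0 in each of the 4 samples.

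NGFR, on chromosome 17 from 47572655 to 47592370 on the plus strand, measured 0.368 and 0.293 RPKM in the Ctrl samples, against 1.01 and 1.26 RPKM in the MYCN KD samples. It was the lowest of the receptor genes above 0 in Ctrl, and its groups did not overlap. It was covered by 43 and 32 reads (Ctrl) and by 100 and 133 reads (MYCN KD), with 95% counting intervals in RPKM from 0.200 to 0.496 over the Ctrl samples and from 0.819 to 1.49 over the MYCN KD samples. The mean over the 4 samples, 0.731 RPKM, was below the filter. In the limma fit without a filter, in which 17.0% of 19904 genes were higher and 13.0% lower (30.0% in all), its log2 fold change was 0.68 (SE 0.077, adjusted p = 0.0166). On the log2(RPKM + 1) scale this change is understated, as the MYCN KD mean was 3.42 times the Ctrl mean. NGFR shares 202 exon bases with NGFR-AS1 and 924 with an unnamed gene, both on the opposite strand.

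ERBB3, on chromosome 12 from 56470583 to 56497289 on the plus strand, measured 0.624 and 0.727 RPKM in the Ctrl samples, against 0.989 and 0.851 RPKM in the MYCN KD samples. The MYCN KD samples were higher, and the counting intervals overlapped between groups. In the fit without a filter its log2 fold change was 0.20 (SE 0.059), with a limma adjusted p of 0.0977 that missed the threshold. ERBB3 shares 31 exon bases with an unnamed gene on the same strand. A partner of its family, ERBB2, was lower still, from 0.357 to 0.720 RPKM over the 4 samples (log2 fold change 0.29, limma adjusted p = 0.0161 in the same fit). The log2(RPKM + 1) scale understates both changes, as the MYCN KD means were 1.36 (ERBB3) and 1.83 (ERBB2) times the Ctrl means. EGFR, of the same family, was far more abundant, from 22.0 to 28.2 RPKM over the 4 samples. NGFR and ERBB3 are also expressed by Schwann cells and their precursors. Of 8 other markers of these cells, 2 had a mean RPKM of at least 1, S100B among them, SOX10 lay from 0.0307 to 0.0722 RPKM and CDH19 was listed at 0. The summed RPKM of the 8 markers was 5.30 and 4.88 in the Ctrl samples, against 8.96 and 9.72 in the MYCN KD samples, and its part in the values of NGFR and ERBB3 was not tested.

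The order of the levels changed between the groups. In Ctrl it was RET, GFRA2, LTK, GFRA3, ALK, NTRK3, ERBB3, NGFR and NTRK2, with means of 61.5, 7.10, 2.48, 1.31, 1.29, 1.19, 0.676, 0.330 and 0 RPKM. The samples of GFRA3 overlapped with those of ALK and of NTRK3, and the other neighbours were separate. ALK and NTRK3 were barely so, with the lower ALK sample at 1.263 RPKM and the higher NTRK3 sample at 1.258 RPKM. Their counting intervals overlapped, so no order can be read between ALK and NTRK3 in Ctrl. In MYCN KD it was RET, LTK, GFRA2, NTRK3, ALK, NGFR, GFRA3, ERBB3 and NTRK2, with means of 110.9, 14.7, 10.5, 2.31, 1.56, 1.13, 1.04, 0.920 and 0 RPKM. LTK had moved above GFRA2, with both of its MYCN KD samples higher than both of those of GFRA2. The samples of NGFR overlapped with those of GFRA3, as did those of GFRA3 with those of ERBB3, and no order can be read among these neighbours.

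**Figure D3:**
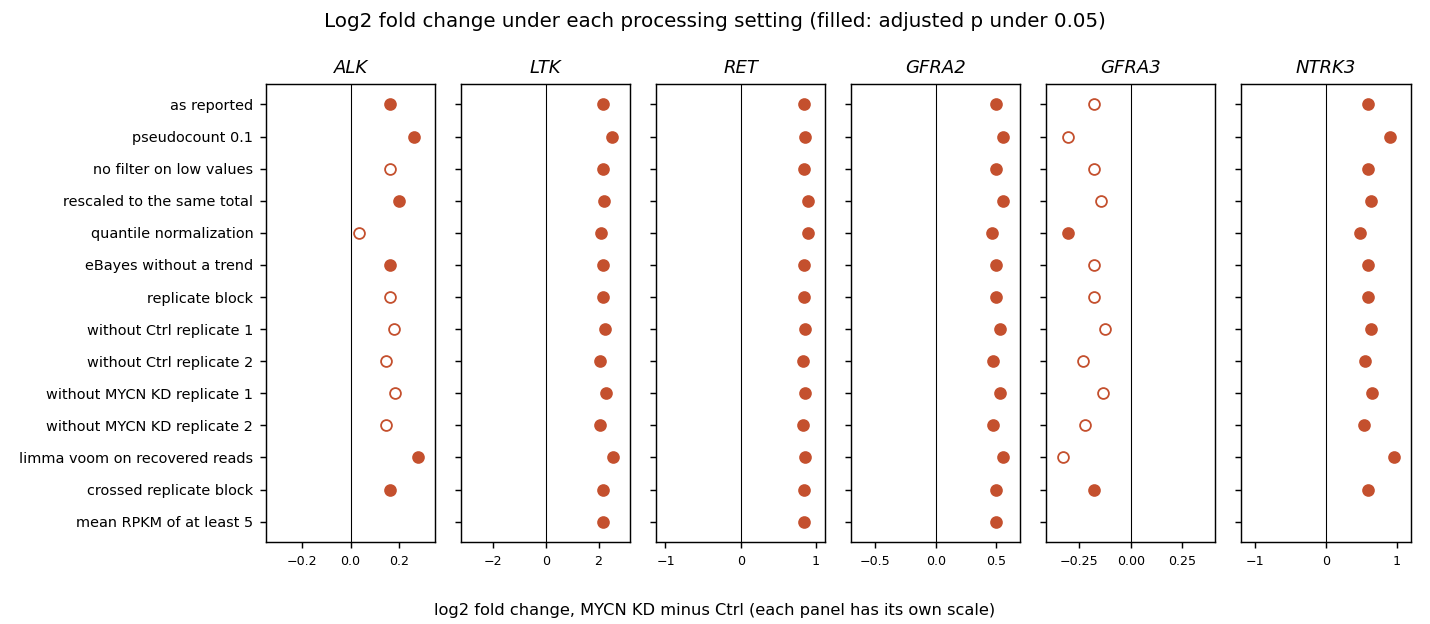
Log2 fold change (MYCN KD minus Ctrl) of the 6 tested receptor genes under each processing setting, filled where the limma adjusted p is under 0.05; each panel has its own horizontal scale. LTK, RET, GFRA2 and NTRK3 are filled in every setting in which they could be tested, whereas ALK and GFRA3 change sides of the threshold.

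Of 16 listed ligand genes, 5 had a mean RPKM of at least 1, of which 2 were higher, 1 was lower and 2 did not pass, beside 25.3% higher and 22.8% lower over everything tested. The higher ones were PTN and MDK. PTN (pleiotrophin) rose from 67.6 ± 2.27 to 93.0 ± 3.02 RPKM (SD, n = 2). MDK (midkine) rose from 28.4 ± 1.63 to 35.4 ± 1.96 RPKM (SD, n = 2, limma adjusted p = 0.0349). The call of MDK was lost when low genes were not filtered out (limma adjusted p = 0.0528). Whether PTN and MDK act on the receptors studied here was not tested. PTPRZ1, another receptor gene of the lists, was at most 0.00383 RPKM over all samples. NRG2, a neuregulin, fell from 7.04 ± 0.603 to 3.32 ± 0.276 RPKM (SD, n = 2). Its log2 fold change was -0.90 (limma adjusted p = 0.00692). GDNF, a ligand that acts through RET, measured 4.49 and 5.50 RPKM in the Ctrl samples, against 7.28 and 5.99 RPKM in the MYCN KD samples (limma adjusted p = 0.115), and NRG1 differed by 0.14 on the log2 scale (limma adjusted p = 0.0754). Of the other GDNF family ligands, the neurturin gene NRTN lay from 0.680 to 1.17 RPKM over all samples. The artemin gene ARTN lay from 0.0831 to 0.113 RPKM. The co-receptor gene GFRA1 was at most 0.00717 RPKM. The known ligands of LTK and NTRK3 were near 0. The ALK and LTK ligand genes, listed under their older symbols, were at 0 (FAM150A) or at most 0.0492 RPKM (FAM150B), and the NT-3 gene NTF3 reached 0.0210 RPKM in 1 sample and was listed at 0 in the others.

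Of 15 other receptors and co-receptors of the same families, 6 were tested, of which 4 rose and 0 fell (0 at an unadjusted p under 0.05 and 0 with limma voom), beside the same 25.3% and 22.8%. Among these, NCAM1, an alternative GDNF receptor, had a log2 fold change of 0.60, SORT1, the sortilin partner of NGFR, of 0.59 and EGFR of 0.32, and each passed the threshold (limma adjusted p = 0.00640, 0.0173 and 0.00929). SORCS1 (0.30) and RTN4R (0.17) did not pass. The median log2 fold change of these 6 was 0.45, and that over everything tested was 0.03.

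**Figure D4:**
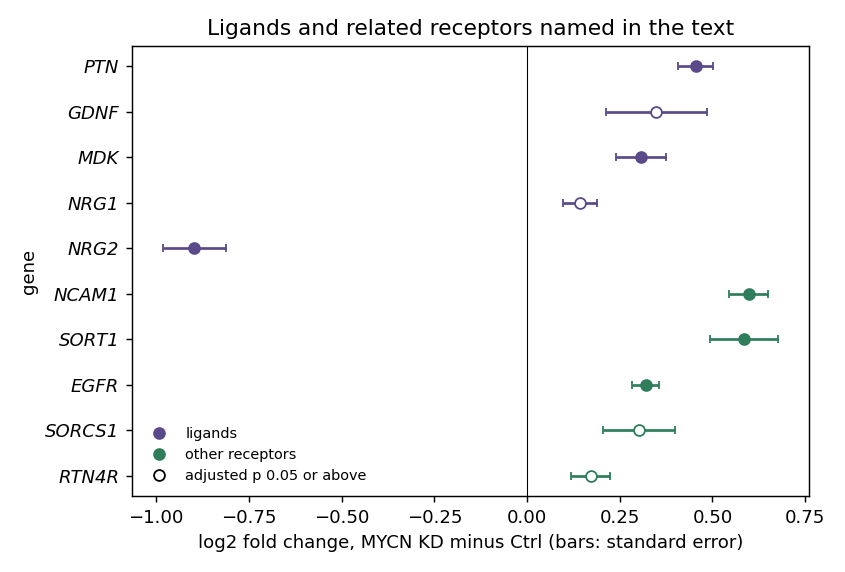
Log2 fold change (MYCN KD minus Ctrl) with its limma standard error for the ligands and related receptors that are named here and averaged 1 RPKM or more. Filled points have an adjusted p under 0.05, and NRG2 at -0.90 is the one gene below 0.

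Genes that act inside the cell were read against the same shares (25.3% higher, 22.8% lower) and the same median of 0.03. Of 30 tested adaptors and members of the RAS, ERK and AKT pathways, 10 were higher, 2 were lower and 18 did not pass, with a median log2 fold change of 0.23. The docking protein GAB2 (1.14), the RAS exchange factor SOS2 (0.94), the adaptor SHC1 (0.92) and KIDINS220 (0.73), a scaffold of NTRK receptors and NGFR, moved most, and the 2 lower genes were the adaptors SHC3 (-0.52) and IRS1 (-0.40). Of 11 tested genes of receptor turnover and attenuation, 4 were higher and 0 were lower, with NEDD4L the 1 gene lower at an unadjusted p under 0.05 and past the threshold with limma voom. The adaptor SH2B3 (0.89) led these, followed by PTPRF (0.32), PTPN1 (0.19) and ERRFI1 (0.17), and the median of the 11 was 0.17. ERRFI1 passed at a limma adjusted p of 0.0418, but not when low genes were not filtered out (0.0677). Of the 9 tested partners of NGFR, 5 were higher and 1 was lower, with a median of 0.20. ZNF274 (0.66), RHOA (0.65), MAGED1 (0.38) and TRAF6 (0.28) changed most, and the kinase RIPK2 (-0.26) was the lower one.

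For each tested receptor gene, the 2 genes with the nearest profile over the 4 samples were found from the Euclidean distance between log2(RPKM + 1) values, each gene centred on its own mean. LTK was nearest to FNDC5 (distance 0.0563), which went from 1.17 to 8.58 RPKM between the group means, and to CLIP3 (distance 0.202), which went from 5.65 to 26.1 RPKM. RET was nearest to GTPBP2 and PLCH2 (distances 0.0106 and 0.0181), GFRA2 to COL22A1 and APPL2 (0.00572 and 0.00758) and NTRK3 to ABCA7 and CD63 (0.0129 and 0.0185). ALK was nearest to IFT27 and PRDM11 (0.00142 and 0.00228), and GFRA3 to TIMM8B and COASY (0.00746 and 0.00800). LTK was farther from its nearest genes than the other 5 receptor genes were from theirs. The distance depends on the size of the change, and few tested genes rose as much as LTK. Because log2(RPKM + 1) understates the change of low genes, a near profile does not mean an equal fold change. Between the group means, GFRA3 went from 1.31 to 1.04 RPKM and TIMM8B from 73.9 to 65.3 RPKM.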

How the data were processed

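RNA-seq was performed on 4 samples, 2 of Ctrl and 2 of MYCN KD, grouped by their titles. Per the labels and methods, the authors aligned reads to the hg19 build in HISAT2 2.1.0, used featureCounts and RefSeq genes for counting, DESeq2 for modelling and RUVSeq to take out unwanted variation. The deposited values, 1 file per sample, are RPKM made by the authors from the resulting normalized counts. The spread between replicates is thus that left after this removal. The RUVSeq variant and number of factors are not given in the sources used here. Of 26364 lines, 4 shared a symbol and were left out. Total reads per sample (29055819 to 34142988) were set from small RNA genes of known length, and all 19904 genes above 0 then gave whole reads (100.0%, within 0.01 of a read). These are reads after normalization, not raw depth.

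The test was limma (version 3.58.1, run under R 4.3.3, lmFit then eBayes with a trend, no block) on log2(RPKM + 1). It covered the 11409 genes that averaged 1 RPKM or more, Benjamini-Hochberg adjusted over all of them, at a threshold of 0.05. The fit was tested on simulated data. Other pseudocounts, filters, scalings and fits, and each sample left out, were tried. The 9 receptor genes and the 5 lists were chosen with earlier results of these data known. Named were the 9 genes and MYCN, from each list up to 4 genes past the threshold with the largest change, the ligands and receptors averaging 1 RPKM or more, and the 2 nearest profiles. Some genes that this rule names are not reported here by name, and the counts of the lists include them. ERBB2, NEDD4L, LRIG1, SHC3, IRS1, RIPK2, FAM150A, FAM150B, NTF3, NRTN, ARTN, GFRA1, CLIP4, NGFR-AS1 and the cell type markers were named after their values were seen. So was PTPRZ1. Positions came from GENCODE release 44 lifted to GRCh37, and promoter sequences from RefSeq (GRCh38.p14), of which 6 of 9 genes had an entry. Scripts ran under Python 3.11.15, with scipy 1.17.1 for intervals and numpy 2.4.6, pandas 2.3.3 for tables, and figures were drawn in matplotlib 3.10.9.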

Additional observations from a re-analysis of the deposited data

How the results depend on the processing

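LTK, RET, GFRA2, NTRK3 and MYCN held their direction and remained past the threshold under each alternative in which they were tested. Of the 6 tested receptor genes, ALK, GFRA3 and NTRK3 could not be tested when a mean of 5 RPKM was required. The log2 fold change of ALK stayed above 0, but did not pass without a filter on low values (0.16), with quantile normalization (0.033) or with the replicate block (0.16). GFRA3 passed with quantile normalization (-0.31) and, with the crossed replicate block, at -0.18. Leaving out each sample in turn gave log2 fold changes from 0.15 to 0.18 for ALK, from -0.23 to -0.13 for GFRA3, from 2.05 to 2.28 for LTK, from 0.82 to 0.86 for RET, from 0.47 to 0.53 for GFRA2, from 0.54 to 0.65 for NTRK3 and from -0.58 to -0.57 for MYCN. In these fits the lone sample of a group is assumed to vary like the others.

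The count of receptor genes was 5 higher and 0 lower. It was 3 higher when a mean of 5 RPKM was required, 4 higher and 1 lower with quantile normalization, 4 higher and 0 lower with the replicate block, 5 higher and 1 lower with the crossed replicate block, and 4 higher without any 1 sample. Over all genes, 2889 were higher and 2598 lower, against 1867 higher and 2105 lower when a mean of 5 RPKM was required, 2898 and 2989 with quantile normalization, 3278 and 2121 after rescaling to the same total and, without 1 sample, from 2459 to 2780 higher and from 2153 to 2428 lower. Limma voom called 2905 higher and 2583 lower.

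In the lists, requiring a mean of 5 RPKM left 1 adaptor or pathway gene lower, 2 attenuators higher and 0 NGFR partners lower. The replicate block left 1 ligand, 1 attenuator and 3 NGFR partners higher and 0 NGFR partners lower. MDK and ERRFI1 did not pass without a filter on low values. Of the attenuators, 1 was lower without a filter (LRIG1), and 1 with quantile normalization and with limma voom (NEDD4L in both). Without 1 sample, ligands higher stayed at 2 and lower at 1, other receptors higher went from 4 to 5, adaptors higher from 8 to 12 and lower from 2 to 3, attenuators higher from 1 to 2, and NGFR partners higher from 3 to 4 and lower 0.

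Between groups, over 11409 genes, the deviations from the group mean of same-numbered samples had a correlation of -0.9845, so the numbers were not taken to pair the samples, and the replicate block called 2075 genes higher and 1850 lower. Crossing the numbers, which was added after seeing the data, called 5909 genes higher and 5261 lower over all genes, 4 ligands, 24 adaptors and 9 attenuators higher, and 6 adaptors, 2 attenuators and 3 NGFR partners lower. Fits with the replicate block or without 1 sample had 1 residual degree of freedom, and the variance in them was set by mean expression alone. The causes of the other changes were not tested. Depth limits ERBB3, GFRA3 and NGFR most, with 32 to 178 reads per sample.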
